A study of Mus musculus with 9 samples.

Results

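Transcript levels of 8 genes, Papln, Cdh19, Chrm3, Dpp10, Ednrb, Tmem154, Lppr4 and Itpkb, were followed through 9 mouse mammary tumours. They are 8 of the 18484 genes in the count files, and they were selected on measured values, as genes with more RNA in tumours with a highly amplified Erbb2/Neu locus than in tumours with little or no amplification. The difference between those groups is therefore described here and not tested. All tumours arose in BlgCre-NeuKI mice on a mixed FVB/C57Bl6 background, in which Cre driven by the Blg promoter, heterozygous and active in luminal oestrogen receptor-negative mammary cells, removes a stop cassette and so switches on an activated rat Neu allele (NeuNT) inserted at the endogenous Erbb2 locus. The high-amplified group held 5 adenocarcinomas of no special type, AC(NST), of which MS1213.1, MS1163.1 and MS1163.2 grew in virgins and the other 2, MS1155.3 and MS1218.2, in parous mice. A further 3 tumours, all of parous mice, made up the not/low-amplified group, namely the adenosquamous carcinomas (ASQC) MS1210.1 and MS1349.1 and the AC(NST) MS1166.1. The remaining tumour, MS1156.1, was a sarcoma from a parous mouse. Ages were not among the labels, amplification overlapped with parity and histotype in this design, and their parts cannot be told apart.

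Most of the 8 genes are best known outside the mammary epithelium. Papilin (Papln) is a secreted glycoprotein of basement membranes related to the ADAMTS proteases. Cadherin 19 (Cdh19) is a type II cadherin of neural crest and Schwann cells, and Lppr4 (now named Plppr4) is a neuronal membrane protein related to the lipid phosphate phosphatases. Dpp10 resembles dipeptidyl peptidase 4 but lacks its enzyme activity, and serves as an auxiliary subunit of Kv4 potassium channels. Chrm3 is a muscarinic acetylcholine receptor and Ednrb a receptor for endothelins that is needed by neural crest-derived melanocytes and enteric neurons. Both can couple to Gq and so raise inositol trisphosphate, the second messenger that Itpkb, a kinase, phosphorylates. The role of the membrane protein Tmem154 is little known.

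Each tumour gave 1 library of 12501225 to 23912429 counted reads, and levels are given as normalized counts, which are counts divided by a size factor for each library. Erbb2 itself, as reads counted on the mouse gene, lay at 5284 to 105019 in the high-amplified and 1532 to 2783 in the not/low-amplified tumours and at 1177 in the sarcoma. MS1163.1 and MS1163.2 carry the same number before the point, and the study refers to MS1163 as 1 animal. They are therefore read here as tumours of 1 mouse, although the series text describes as many mice as tumours. The main fits and the SDs count both tumours separately. MS1218.2 stood apart from the other high-amplified tumours in the summed level of 4 lists of stromal markers. The 10 endothelial markers summed to 21648 there against 4774 to 6748 in the other high-amplified tumours, the 9 fibroblast markers to 397796 against 46776 to 127297, the 10 smooth muscle and pericyte markers to 37120 against 9863 to 16699, and the 10 leukocyte markers to 19376 against 3315 to 7545. The 11 basal and myoepithelial markers, of which Acta2, Myh11 and Cnn1 are also on the smooth muscle list, summed to 49614 in MS1218.2. They summed to 6500 to 10289 in the other high-amplified and 20181 to 67484 in the not/low-amplified tumours. The study also set MS1218.2 apart for its tumour purity. The amplification groups follow its genomic qPCR, and its assays of copy number differed for MS1218.2 and MS1213.1. Both were high by qPCR and low by droplet PCR, while copy number from exome data showed amplification in MS1213.1 but not in MS1218.2. The 9 luminal markers summed to 51570 to 72759 in the high-amplified and 94235 to 167255 in the not/low-amplified tumours but only to 1314 in the sarcoma. In bulk tumours, fewer cells of a type and less RNA per cell cannot be told apart.

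The promoter sequences that RefSeq gives for build GRCm38.p6 were matched for 7 of the 8 genes, Cdh19 having no entry. Shown first are the bases upstream of the start site of the 4 genes whose level in every high-amplified tumour exceeded that in each of the other 4 tumours. Each sequence runs 5′ to 3′ on the strand of its gene and ends just before the annotated first exon, and capitals mark a matched motif.
Papln, chr12:83763384-83763633, plus strand: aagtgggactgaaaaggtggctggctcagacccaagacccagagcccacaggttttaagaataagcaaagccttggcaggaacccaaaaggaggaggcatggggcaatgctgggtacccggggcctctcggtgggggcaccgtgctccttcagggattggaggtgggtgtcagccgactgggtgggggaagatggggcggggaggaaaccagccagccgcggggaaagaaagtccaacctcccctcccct
Chrm3, chr13:10360848-10361053, minus strand: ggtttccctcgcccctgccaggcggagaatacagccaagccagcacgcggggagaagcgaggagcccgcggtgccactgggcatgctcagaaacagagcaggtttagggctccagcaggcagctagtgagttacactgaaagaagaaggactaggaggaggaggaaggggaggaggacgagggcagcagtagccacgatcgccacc
Tmem154, chr3:84665942-84666191, plus strand: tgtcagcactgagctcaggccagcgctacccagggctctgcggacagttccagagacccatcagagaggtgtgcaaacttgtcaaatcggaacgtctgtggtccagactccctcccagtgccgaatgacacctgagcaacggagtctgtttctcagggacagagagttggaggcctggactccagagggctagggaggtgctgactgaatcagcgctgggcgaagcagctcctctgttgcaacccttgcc
Lppr4, chr3:117360877-117361126, minus strand: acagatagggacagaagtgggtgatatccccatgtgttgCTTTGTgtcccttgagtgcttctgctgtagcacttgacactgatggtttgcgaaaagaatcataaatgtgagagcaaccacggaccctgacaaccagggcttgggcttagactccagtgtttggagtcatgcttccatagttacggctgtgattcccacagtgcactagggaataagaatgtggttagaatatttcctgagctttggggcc

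Windows from 250 bases before to 50 after the start were searched on both strands for ACAAAG and ACAATG (Sox factors), CGGAAG (Ets factors), GTAAACA (Fox factors) and TCAAAG (Tcf/Lef factors), of which ACAAAG and TCAAAG share their last 5 letters. Of the 32851 windows of this length, 18.7% held ACAAAG, 12.6% ACAATG, 16.9% CGGAAG, 3.65% GTAAACA and 16.0% TCAAAG. Among the 7 genes there were 3 matches, namely 1 of ACAAAG in Lppr4 (211 bases before the start), 1 of ACAATG in Itpkb (198 bases before it) and 1 of CGGAAG in Dpp10, from 2 bases before the start across it. No match of these letters lay in the windows of Papln, Chrm3, Tmem154 or Ednrb, and the matches are a description of sequence only. The 30 bases around those in Itpkb and Dpp10 follow, with the motif in capitals, and in Dpp10 and Lppr4 the motif lies on the opposite strand, so that its reverse complement is read here.
Itpkb, chr1:180330266-180330295, plus strand: ttttgttagctaACAATGgaaacttttttt
Dpp10, chr1:124045556-124045585, minus strand: caccgctgccgccgctgcttttctCTTCCG

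A set of 6 of the 8 genes, Papln, Cdh19, Chrm3, Tmem154, Lppr4 and Itpkb, had a level in each high-amplified tumour above that in any not/low-amplified one. Of the 14007 genes with enough counts to be tested, 7.55% had this pattern, and since the genes were chosen on this contrast nothing is read from the difference. In 4 of them (Papln, Chrm3, Tmem154 and Lppr4) each high-amplified tumour also exceeded the sarcoma, a pattern of 2.01% of tested genes. Cdh19 and Itpkb were highest in the sarcoma, and Dpp10 and Ednrb overlapped between the amplification groups, so that the description of all 8 as highest in every high-amplified tumour held for 4. Without MS1218.2, 7 of the 8 genes separated the 2 groups in this way (16.5% of tested genes), Dpp10 being the addition. Among parous tumours alone, both high-amplified tumours exceeded all 3 not/low-amplified tumours in the same 6 genes (14.3% of tested genes). For these 6 genes that outcome was fixed by the pattern above, since all 3 not/low-amplified tumours were parous. All 8 genes passed the filter on low counts (10 or more reads in 3 or more epithelial tumours), although no not/low-amplified tumour reached 10 counts of Dpp10. In the test over all genes 5 of the 8 (Papln, Cdh19, Chrm3, Tmem154 and Lppr4) were among the 0.435% of genes called higher, which the choice of genes largely fixed, while 0.485% of genes were called lower.

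**Figure D1:**
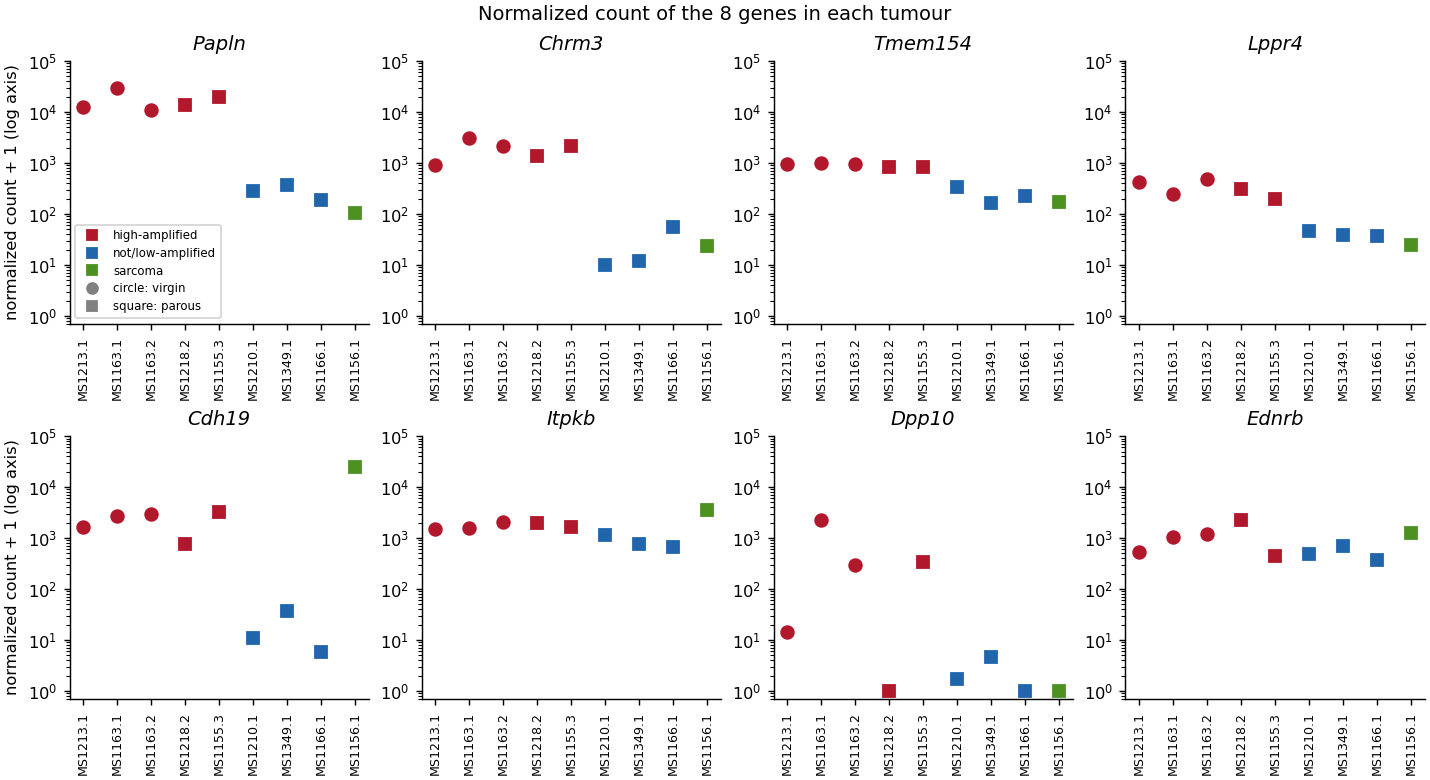
Normalized count plus 1 (log axis) of each of the 8 genes in the 9 tumours, 1 point per tumour, coloured by group, with circles for virgin and squares for parous mice. In Papln, Chrm3, Tmem154 and Lppr4 all 5 high-amplified tumours lie above the other 4 tumours, in Cdh19 and Itpkb the sarcoma is highest, and in Dpp10 and Ednrb the amplification groups overlap.

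Per transcript length, Papln was the most abundant of the 8 in the high-amplified tumours. Its normalized count was 11138 in MS1163.2, 12564 in MS1213.1, 13863 in MS1218.2, 19782 in MS1155.3 and 29184 in MS1163.1. The sarcoma had 106, and MS1166.1, MS1210.1 and MS1349.1 had 192, 288 and 367. The lowest high-amplified tumour was thus 30.4 times the highest not/low-amplified one, and the group means, 17306 ± 7410 (SD, n = 5) and 282 ± 87.8 (SD, n = 3), differed 61.4-fold. In TPM, levels scaled by exon length and then to 1 total per library, Papln stood at 861 ± 374 (SD, n = 5) in the high-amplified tumours, and the median over these tumours of its rank among all genes was the 99.4th percentile. In the sarcoma, where basement membrane transcripts such as Col4a1 (115223 normalized counts against 7924 to 47754 in the high-amplified tumours) were abundant, Papln was at its lowest.

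Chrm3, the muscarinic receptor, had normalized counts of 902, 3052, 2140, 1391 and 2155 in MS1213.1, MS1163.1, MS1163.2, MS1218.2 and MS1155.3. MS1210.1 and MS1349.1 had 9.14 and 11, MS1166.1 had 53.5, and the sarcoma had 22.3. The lowest high-amplified tumour, MS1213.1, was 16.9 times the highest not/low-amplified one, which was the single AC(NST) of that group. Group means were 1928 ± 822 (SD, n = 5) and 24.5 ± 25.1 (SD, n = 3), a 78.6-fold difference.

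Tmem154 varied least among the high-amplified tumours, with normalized counts of 942, 980, 957, 837 and 839 in the same order and a coefficient of variation of 7.48%. The not/low-amplified tumours had 334, 164 and 225 (MS1210.1, MS1349.1 and MS1166.1), and the sarcoma 170. The groups did not overlap, the means being 911 ± 68.1 (SD, n = 5) and 241 ± 86.0 (SD, n = 3), a 3.78-fold difference. Tmem154 lies within the span of the opposite-strand gene Gm37240 in the GENCODE M21 annotation, although their annotated exons share 0 bases. Gm37240 had a mean of 118 normalized counts in the high-amplified and 18.8 in the not/low-amplified tumours. The study's methods describe the alignment and the FPKM step as unstranded and do not give the strand option of the HTSeq counts used here, so reads of the 2 genes outside annotated exons cannot be told apart by strand.

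Lppr4, the neuronal lipid phosphatase relative, also separated the groups. Its normalized counts were 422, 249, 490, 313 and 198 in the high-amplified group, 45.7, 38 and 36.9 in the not/low-amplified group, and 23.7 in the sarcoma. MS1155.3, the lowest of the high-amplified tumours, was 4.34 times the highest not/low-amplified one. The group means of 334 ± 120 (SD, n = 5) and 40.2 ± 4.81 (SD, n = 3) differed 8.32-fold.

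Among the 7 genes detected in every tumour, Cdh19 had the widest ratio of highest to lowest level, 5166-fold, followed by Chrm3 at 334-fold and Papln at 275-fold. Among the epithelial tumours it had 1637, 2729, 2919, 764 and 3213 normalized counts in MS1213.1, MS1163.1, MS1163.2, MS1218.2 and MS1155.3, against 9.85, 36.5 and 4.76 in MS1210.1, MS1349.1 and MS1166.1. In the sarcoma it reached 24580, which was 10.9 times the high-amplified mean of 2252 ± 1023 (SD, n = 5). The high-amplified tumours were thus all above the not/low-amplified tumours and all below the sarcoma. MS1218.2, with the highest stromal marker sums, had the lowest level of Cdh19 in the high-amplified group.

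Since Cdh19 is a Schwann cell gene, 10 Schwann cell markers were set beside it. Of these, 9 were highest in the sarcoma, and the 10 summed to 77840 there against 2313 to 6553 in the high-amplified and 3015 to 8479 in the not/low-amplified tumours. Gfap, a glial intermediate filament, had 1056 normalized counts in the sarcoma, 10.5 to 30.5 in the high-amplified and 2.92 to 4.76 in the not/low-amplified tumours, with an adjusted p of 0.0908 between the latter groups (edgeR quasi-likelihood test). Ngfr, the low-affinity neurotrophin receptor, had 1635 in the sarcoma, 4.82 to 42.5 in the high-amplified tumours and 117, 271 and 0 in MS1210.1, MS1349.1 and MS1166.1. Mal, a proteolipid of myelin and of epithelia, was higher in MS1210.1 (5235) than in the sarcoma (2776), with 12.9 to 336 in the high-amplified and 120 to 5235 in the not/low-amplified group (edgeR log2 fold change -4.27, SE 1.22, adjusted p = 0.0982). The neural crest factor Foxd3 had 2437 in the sarcoma and 0 to 4.63 in the high-amplified tumours. Sox10, which marks Schwann cells and also luminal progenitor cells of the mammary gland, had 2208 to 6699 in the high-amplified, 666 to 2852 in the not/low-amplified group and 8115 in the sarcoma.

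One marker of the 10, S100b, a calcium-binding protein of glia, was called higher in the high-amplified tumours (log2 fold change 5.63, SE 1.05, adjusted p = 0.0433, edgeR quasi-likelihood test with Benjamini-Hochberg adjustment). Its normalized counts were 114, 373, 209, 1095 and 142 in the high-amplified tumours, 14.8, 4.38 and 3.57 in the not/low-amplified group and 3903 in the sarcoma. Unlike Cdh19, S100b was highest of its group in MS1218.2. The call was kept under 4 of 14 alternatives, with adjusted p from 2.62e-09 to 0.785. The 11 neuronal markers in the files summed to 15.7 to 65.9 in the high-amplified and 21.4 to 40.1 in the not/low-amplified tumours, and to 41.9 in the sarcoma. Of 6 melanocyte markers, Tyrp1 and Slc45a2 were at most 3.73 in any tumour, Dct was at most 2.49 in the epithelial tumours and at 94.9 in the sarcoma, Mlana reached 26.1 (MS1163.2) and Pmel lay at 6.44 to 22.4. The sixth, Kit, which luminal progenitor cells also express, had 4157 to 17428 in the epithelial tumours and 425 in the sarcoma. The part of Schwann cell RNA in the level of Cdh19 was not tested.

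**Figure D2:**
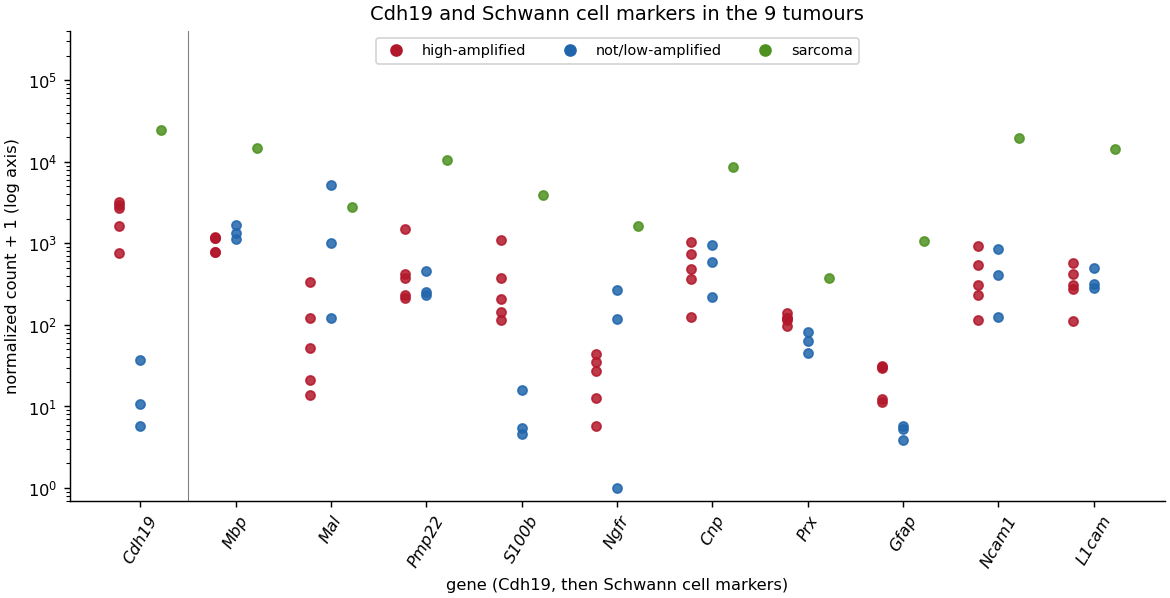
Normalized count plus 1 (log axis) of Cdh19 and of 10 Schwann cell markers in the 9 tumours, 1 point per tumour, coloured by group. In the high-amplified tumours Cdh19 is at 764 to 3213, Ngfr at 4.82 to 42.5, Gfap at 10.5 to 30.5, Mbp at 787 to 1199 and Pmp22 at 215 to 1517. These counts are not scaled by transcript length, so they compare tumours and not genes. The sarcoma is highest in every gene shown but Mal.

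Itpkb and Ednrb differed by only 2.07-fold and 2.09-fold between the group means. Itpkb had 1533, 1581, 2115, 1982 and 1676 normalized counts in the high-amplified tumours, 1155, 760 and 663 in the not/low-amplified group and 3497 in the sarcoma. The groups did not overlap, but the gap was narrow, the lowest high-amplified tumour being 1.33 times the highest not/low-amplified one. The means were 1777 ± 257 (SD, n = 5) and 859 ± 261 (SD, n = 3).

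Ednrb, the endothelin receptor, had 534, 1060, 1217, 2217 and 450 normalized counts in the high-amplified tumours and 497, 701 and 376 in the not/low-amplified tumours, with 1278 in the sarcoma. Of the 5 high-amplified tumours, 2 (MS1213.1 and MS1155.3) lay below MS1349.1. The highest value was that of MS1218.2. The 3 genes whose levels followed Ednrb most closely, Pdia5, Cd34 and Alox5, were highest of the epithelial tumours there as well. Their choice by likeness to Ednrb over the same tumours largely fixed this. Cd34 (a marker of endothelial and progenitor cells) had 2952 normalized counts in MS1218.2 against 519 to 936 in the other high-amplified tumours. The part of stromal RNA in the level of Ednrb was not tested. Without MS1218.2 the log2 fold change of Ednrb was 0.64, against 1.07 with it.

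Dpp10 was the most uneven of the 8. Its normalized counts were 0 in MS1218.2, 13.5 in MS1213.1, 292 in MS1163.2, 336 in MS1155.3 and 2226 in MS1163.1. The not/low-amplified tumours had 0.703, 3.65 and 0, and the sarcoma 0. A count of 0 allows up to 2.78 normalized counts in MS1218.2, so that this high-amplified tumour could not be told from the not/low-amplified ones at this depth, where MS1210.1 had 1 read and MS1349.1 had 5. The high-amplified mean of 573 ± 936 (SD, n = 5) rested on MS1163.1, which had 7.62 times the level of MS1163.2, which carries the same mouse number.

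Set on the same scale per length, the high-amplified means of the other genes were 152 ± 72.1 TPM for Cdh19, 86.5 ± 38.1 TPM for Chrm3, 67.9 ± 34.4 TPM for Ednrb, 54.3 ± 9.52 TPM for Tmem154, 47.4 ± 7.20 TPM for Itpkb, 13.3 ± 5.77 TPM for Lppr4 and 10.2 ± 16.5 TPM for Dpp10 (SD, n = 5 each). Neighbours in this order differed by less than the larger of their SDs, except at the steps from Papln to Cdh19 and from Itpkb to Lppr4. In the not/low-amplified tumours the order was different, Ednrb being first at 26.8 ± 10 TPM and Itpkb second at 18.0 ± 7.52 TPM, with Cdh19 at 0.880 ± 0.887 TPM (SD, n = 3 each).

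The families and pathways of the 8 genes were examined through 9 lists holding 123 other genes of the files, of which 101 could be tested. In edgeR's test 0 of the 101 were called higher and 0 were called lower in the high-amplified tumours, whereas 27 (26.7%) had an unadjusted p under 0.05, against 22.8% of all genes tested. DESeq2 called 10 of the 122 it could fit higher and 3 lower (8.20% and 2.46%), against 4.91% and 3.73% of all genes it fitted. Of the 10, 4 were on the basement membrane list and 2 each on the acetylcholine and inositol phosphate lists. The papilin and neural crest lists had 1 each. Of the 3 called lower by DESeq2, 2 were on the endothelin list and 1 on the lipid phosphate list. The median log2 fold change of all tested genes was 0.02. Lists were described by their counts. The genes named are the 2 most abundant of each list by the mean of all 9 tumours, sarcoma included, unless stated otherwise.

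Papilin relatives and basement membrane genes had median log2 fold changes of 0.72 (6 genes) and 0.69 (23 genes). Of the ADAMTS-like genes, Adamtsl1 had 85 to 888 normalized counts in the high-amplified tumours, 113 to 119 in the not/low-amplified group and 7041 in the sarcoma, and Thsd4 had 128 to 1736, 399 to 1418 and 405. Among basement membrane genes, Col4a1 had 7924 to 47754 and 7784 to 12755, and Sparc 5035 to 33927 and 5604 to 14112, both highest of the epithelial tumours in MS1218.2 and higher still in the sarcoma (115223 and 94108).

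The 8 tested cadherins other than Cdh19 had a median log2 fold change of -0.27. Cdh1 (E-cadherin), the epithelial cadherin, had 6840 to 9068 normalized counts in the high-amplified and 13716 to 15631 in the not/low-amplified group (log2 fold change -0.83, SE 0.26, adjusted p = 0.115, edgeR), and 79.5 in the sarcoma. Cdh11, a mesenchymal cadherin, had 280 to 1328 and 394 to 1903, and 6473 in the sarcoma. Cdh20, a close relative of Cdh19 and named after its values were seen, was at 0 to 3.73 in the epithelial tumours and at 446 in the sarcoma.

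The 4 tested genes of acetylcholine handling other than Chrm3 had a median log2 fold change of 3.27, the largest of the lists. That median lies between Slc5a7 (4.10) and Ache (2.43), neither of them called by edgeR. Slc5a7 had 1084 normalized counts in MS1213.1 but 2.10 to 58.3 in the other high-amplified and 0 to 28.5 in the not/low-amplified tumours. Ache was low throughout, at 17.6 to 72.2 and 3.65 to 9.52 in these groups. Bche (butyrylcholinesterase), which breaks down choline esters, had 607, 550, 1703, 250 and 305 normalized counts in the high-amplified tumours, 12, 72.3 and 5.95 in the not/low-amplified group and 8658 in the sarcoma. Its log2 fold change was 4.47 (SE 1.02, adjusted p = 0.0672, edgeR), which did not pass the threshold. The sarcoma was highest, as in Cdh19. Chrm1, another muscarinic receptor, had 264 to 1046 in the high-amplified tumours but 1013 in MS1166.1 and 14.8 and 14.6 in the ASQC tumours (adjusted p = 0.750, edgeR). Choline acetyltransferase (Chat), which makes acetylcholine, was at most 1.24 in any tumour.

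In the endothelin list the 5 tested genes other than Ednrb had a median log2 fold change of -1.41. The ligand Edn1 had 17.8 to 52.8 normalized counts in the high-amplified tumours against 98.6 to 884 in the not/low-amplified group (log2 fold change -3.32, SE 0.68, adjusted p = 0.0561, edgeR). Edn2 had 0 to 7.73 and 13.9 to 186 (adjusted p = 0.0820, edgeR). Both ligands were named after their values were seen, and neither passed the threshold in edgeR, whereas DESeq2 called 2 genes of this list lower. The processing enzyme Ece1 had 721 to 3720 and 2918 to 6170, and the other receptor, Ednra, 203 to 921 and 70.2 to 278.

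The inositol phosphate list held 23 tested genes other than Itpkb, with a median log2 fold change of 0.40. The inositol trisphosphate receptors Itpr3 and Itpr2, which release calcium, had 7189 to 11708 and 3078 to 8780 normalized counts in the high-amplified tumours against 3833 to 4834 and 1857 to 2561 in the not/low-amplified group (log2 fold changes 1.12 and 1.42, adjusted p = 0.0826 and 0.0878, edgeR). The other inositol trisphosphate kinases, Itpka and Itpkc, had log2 fold changes of -1.07 and -0.76 and were not called.

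The remaining lists had medians of 0.02 to 0.35. The 10 tested Kv4 channel and dipeptidyl peptidase genes other than Dpp10 had a median log2 fold change of 0.35, with the peptidases Dpp8 and Dpp9 at 2303 to 4008 and 575 to 1101 normalized counts in the high-amplified and 2622 to 2768 and 558 to 932 in the not/low-amplified tumours. The pore-forming subunits Kcnd1, Kcnd2 and Kcnd3, which Dpp10 accompanies, were at most 59.3 in the epithelial tumours. The 12 tested lipid phosphate genes other than Lppr4 had a median of 0.02, Ppap2c lying at 1767 to 3015 and 2157 to 2569 and Ppap2b at 1028 to 2573 and 658 to 2050. The 10 tested neural crest and glial factors had a median of 0.25. By the mean of all 9 tumours the most abundant were Zeb2, at 1110 to 3309 and 320 to 1518, with 65999 in the sarcoma, and Sox10. In every epithelial tumour Sox10 was higher than Zeb2.

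**Figure D3:**
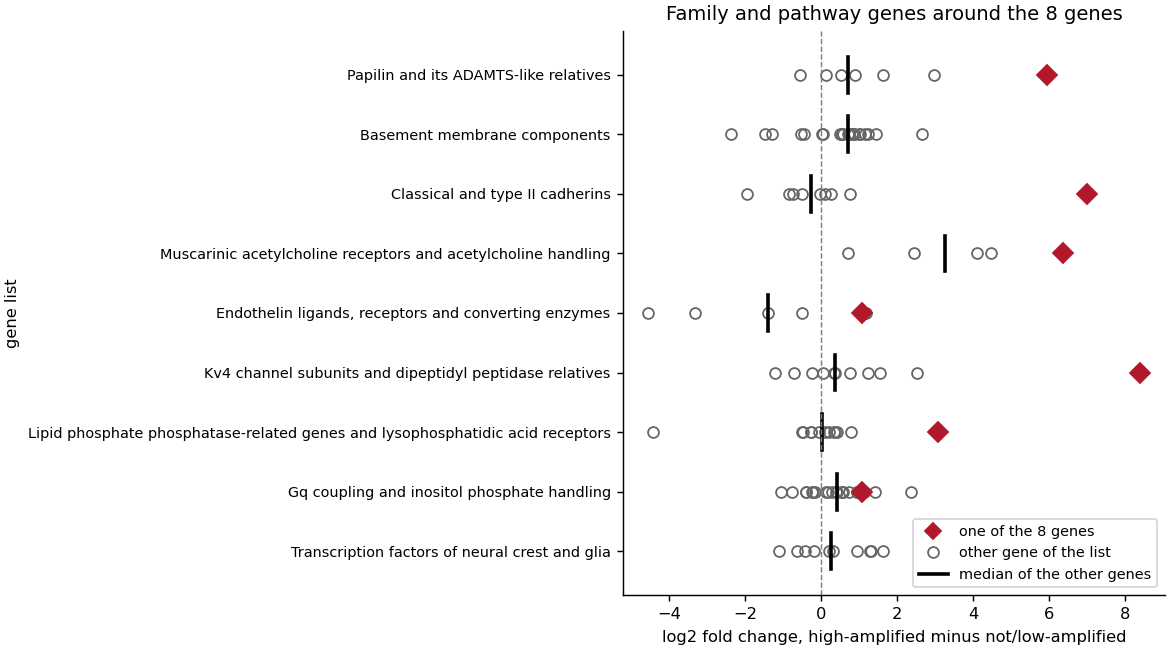
Log2 fold change between high-amplified and not/low-amplified tumours for the tested genes of 9 family and pathway lists, with the 8 selected genes as filled diamonds, the other genes as open circles and their median as a bar. The bar for acetylcholine handling stands at 3.27 over 4 genes, among them Slc5a7, which was by far highest in MS1213.1. The bar for the endothelin list stands at -1.41, whereas the diamonds were chosen on this axis.

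Because parity did not enter the choice of the genes, parous and virgin mice were compared within the 5 high-amplified tumours. Of 13949 genes tested, 0% were called in either direction by edgeR, 884 had an unadjusted p under 0.05, and DESeq2 called 58. None of the 8 genes was called, with adjusted p from 0.751 to 0.982 (edgeR), and none was called under any of 10 alternatives. For Papln the level was 16822 ± 4185 (SD, n = 2 tumours) in parous and 17628 ± 10033 (SD, n = 3 tumours) in virgin mice, and the 95% interval of the log2 fold change ran from -2.03 to 1.93. Intervals here were built from the estimate and SE of the fit with 3 degrees of freedom. The edgeR p-values rest on more degrees of freedom, so intervals matched to them would be narrower. The interval for Tmem154 was the narrowest of the 8, from -1.23 to 0.89, and that for Dpp10 the widest, from -8.97 to 4.29. The levels of Tmem154 did not overlap between tumours of parous (837 and 839) and virgin (942 to 980) mice, a pattern of 20.7% of the genes tested, and those of the other 7 genes overlapped. The fit took each tumour as independent, although 2 of the 3 virgin tumours carry 1 mouse number. With 2 parous tumours, of which MS1218.2 stood apart, each of the 8 intervals built in this way reached past 2-fold in at least 1 direction. This need not hold for narrower intervals matched to the edgeR p-values, which were not computed.

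**Figure D4:**
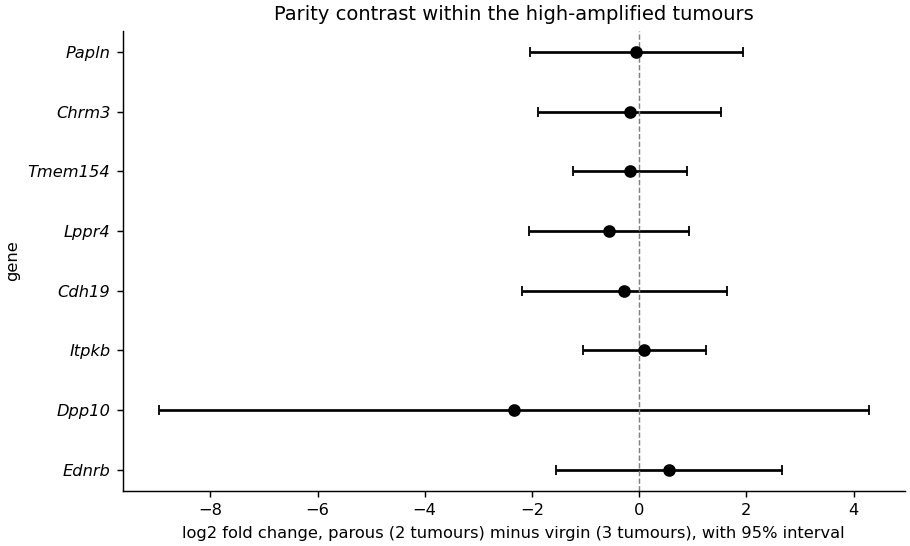
Log2 fold change of the 8 genes between tumours of parous (2 tumours) and virgin mice (3 tumours, of which 2 carry the same mouse number) within the high-amplified group, with 95% intervals. The intervals use the edgeR estimate and SE with 3 degrees of freedom and are wider than those matched to the edgeR p-values would be. Each of the 8 intervals includes 0, from the narrowest in Tmem154 (-1.23 to 0.89) to the widest in Dpp10 (-8.97 to 4.29).

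The pair of tumours numbered 1163 gave a second look within the group. Levels in MS1163.1 and MS1163.2 were nearly equal for Tmem154 (980 and 957), Cdh19 (2729 and 2919) and Ednrb (1060 and 1217). They differed 2.62-fold in Papln, 7.62-fold in Dpp10 and 1.97-fold in Lppr4, the last with the higher level in MS1163.2. Each tumour had 1 library, so these differences carry no error of their own.

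The 8 genes lie on 5 chromosomes in GRCm38, with Cdh19 at chr1:110888326-110977584, Dpp10 at chr1:123321471-124045559, Itpkb at chr1:180330485-180424802, Tmem154 at chr3:84666192-84704575, Lppr4 at chr3:117319139-117360876, Papln at chr12:83763634-83792382, Chrm3 at chr13:9875486-10360847 and Ednrb at chr14:103814625-103844402. None is on chromosome 11, which carries Erbb2. The 5 nearest genes on each side of each gene gave 80 neighbours, of which 59 could be tested, and edgeR called 0 of them in either direction, with 17 (28.8%) at an unadjusted p under 0.05, against 22.8% of all genes. DESeq2 called 6 of the 80 (7.50%), against 8.64% of all genes it fitted. Their median log2 fold change was 0.30. Around Papln, Chrm3 and Cdh19 the highest neighbour had a log2 fold change of 1.59, 1.14 and 0.47, against 5.95, 6.37 and 7.0 for the genes themselves. The 8 genes were chosen on this contrast and the neighbours were not, so nothing is read from the gap. Some tested neighbours were far away, at 881 to 3508 kb from Cdh19 and 1347 to 2713 kb from Dpp10. The neighbours of Lppr4 had the highest median, 0.97, and those of Cdh19 the lowest, -2.36 over 4 tested genes, where Serpinb11 and Serpinb2 of the serpin cluster lay at -4.39 and -3.99. These serpins are 3508 and 3353 kb from Cdh19. Their levels in the not/low-amplified tumours were uneven, at 425 ± 620 and 361 ± 563 (SD, n = 3).

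**Figure D5:**
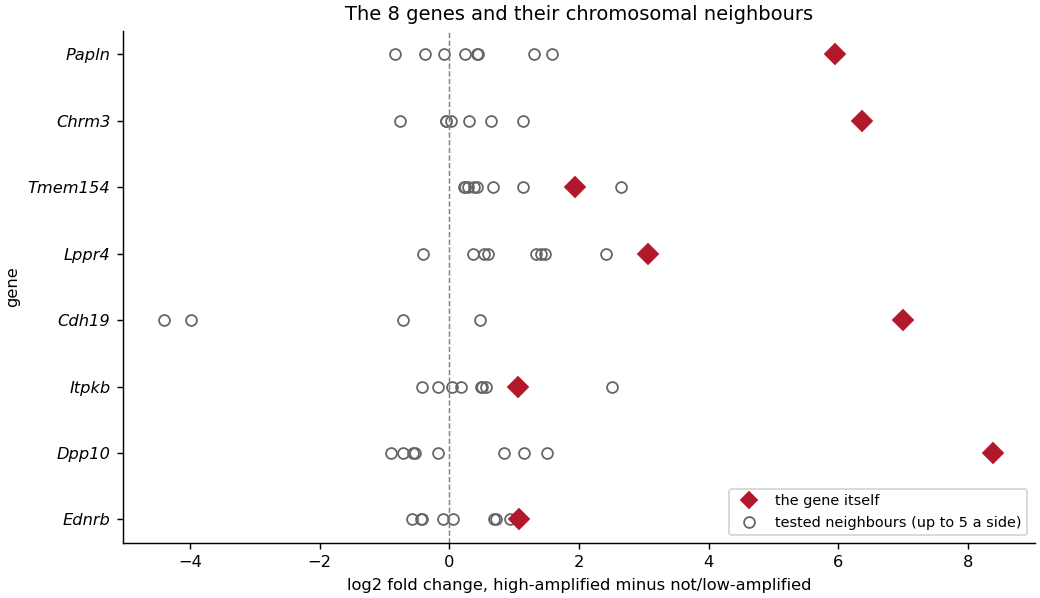
Log2 fold change between high-amplified and not/low-amplified tumours for each of the 8 genes (diamonds) and for its tested neighbours, up to 5 on each side (open circles). The neighbours of Papln, Chrm3, Cdh19 and Dpp10 lie far below the gene itself, whereas a neighbour exceeds Tmem154 (Gm37240, 2.65) and Itpkb (6330403A02Rik, 2.51). The diamonds were chosen on this axis and the circles were not.

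Finally, the genes whose log2 levels over the 9 tumours were most like each of the 8 were taken from 12343 other genes with a mean of at least 50 normalized counts. The measure was Pearson's r, given without a test, since the tumours share their grouping and the genes were chosen on it. Nrg2 (neuregulin 2), a ligand of ErbB family receptors, was among the 3 most alike for Papln, Chrm3, Tmem154 and Lppr4, with r of 0.97, 0.97, 0.96 and 0.95 over 9 tumours. Its normalized counts were 482, 656, 283, 346 and 299 in the high-amplified tumours, 9.14, 8.04 and 26.2 in the not/low-amplified group and 4.19 in the sarcoma. Lmf1 (lipase maturation factor 1) was named for both Papln and Chrm3, and the third genes were Rassf3 for Papln and Gm9847 for Chrm3. Tmem154 also followed Col11a1, a fibrillar collagen chain (r = 0.97 over 9 tumours), and Synj2, and Lppr4 followed Map3k5 and Pnpla7. Col11a1 had 14867 to 20335 normalized counts in the high-amplified tumours, 404 to 2693 in the not/low-amplified group and 837 in the sarcoma.

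The genes that followed Cdh19, namely Dnhd1, Pcdhga5 and Setd4, were highest in the sarcoma like it, although far less so (603 against 124 to 336 in the high-amplified tumours for Pcdhga5, a protocadherin). Itpkb was followed by Pcdhb13, Hbegf and Ttc28, and Dpp10 by Map3k13, Kif16b and Zcchc2. Within the group of 8, Papln, Chrm3, Tmem154 and Lppr4 had r of 0.91 to 0.96 with each other over the 9 tumours. Within the high-amplified group their order differed, Papln being highest in MS1163.1, where Lppr4 was second lowest.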

How the data were processed

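RNA of 9 snap-frozen tumours was measured by RNA-seq with ribosomal depletion and a strand-specific kit. Per the study's methods, paired reads were aligned with STAR, uniquely placed reads with at most 3 mismatches were kept, and HTSeq counted them on Ensembl genes of mouse build 38. For all 9 tumours the authors deposited counts, as whole reads per gene. The signal values deposited for the 8 epithelial tumours are those counts divided by a DESeq2 size factor. The sarcoma was put on this scale here by its median ratio to the geometric mean of the 8. Genes, 18420 of 18484, were placed with GENCODE M21.

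Counts were tested with edgeR 4.0.16 (R 4.3.3; TMM, glmQLFit, glmQLFTest, Benjamini-Hochberg), high-amplified against not/low-amplified (at least 10 counts in 3 of 8 tumours) and parous against virgin within the high-amplified (in 2 of 5), without covariates. Genes were called at an adjusted p under 0.05 and over 2-fold. The fit was tested on simulated data. Each tumour was a replicate, so p-values measure the spread between these tumours. DESeq2 1.42.0, other scaling, filters, covariates and left-out tumours were alternatives. TPM used exon lengths. The 8 genes and all lists were chosen with earlier results of these data known. Named genes were the 8, Erbb2, called list genes (up to 4) or the 2 most abundant of a list by the mean of 9 tumours, called neighbours and the 3 most alike genes. Other genes were named after their values were seen, and 2 listed markers are not reported here. Intervals from counts cover counting error only.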

Additional observations from a re-analysis of the deposited data

Results flagged for a closer look

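Dpp10 in MS1163.1, at 2226 normalized counts, lay far from the other 4 high-amplified tumours (0 to 336), its gap to the nearest of them being 0.849 of the range of the group. Both ends of the group were examined for 8 genes in this way, on normalized counts without a log scale. Chance alone would set apart about 1 such group in 20 if the values were normally distributed, which was not checked. MS1163.1 also had the highest Papln and Chrm3 of the 9 tumours, without standing apart from the group in either.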

How the results depend on the processing

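The counts of called genes depended on the tool and on single tumours. With DESeq2, 902 genes were called higher and 685 lower in the high-amplified tumours (61 and 68 with edgeR), with 10 and 3 list genes and 6 neighbours, and 58 genes by parity. Without a filter on low counts these became 139 lower, 1 list gene lower, 2 neighbours and 1 gene by parity. With parity as a covariate 0 were called in either direction, with tumours of 1 mouse number summed 18 higher and 13 lower, and with the sarcoma among the not/low-amplified tumours 3 higher and 0 lower. Leaving out each tumour in turn gave 0 to 751 higher, 1 to 504 lower, 0 to 7 list genes higher, 0 to 2 lower and 0 to 6 neighbours, the upper ends each without MS1218.2, and 0 by parity. The number called higher moved over 1.5 times without any 1 of the 8 tumours (0 without MS1210.1). The causes were not tested. Of 112 recomputed fold changes of the 8 genes between amplification groups, 110 kept their direction and moved by less than 1 SD of the log2 levels within a group. The choice of the genes on this contrast largely fixed their direction, and for Dpp10 that SD was wide, at 4.38. Single tumours still moved the fold over 1.5 times in Cdh19 (log2 fold change 8.21 without MS1349.1, 7.0 with it), Chrm3 (7.57 without MS1166.1, 6.37 with it) and Dpp10 (6.57 without MS1163.1 and 10.02 without MS1349.1, 8.39 with both), as did parity as a covariate in Dpp10 (6.62). The exceptions among the 112, both with the sarcoma among the not/low-amplified tumours, were Cdh19, which turned to -1.42, and Itpkb, at 0.25 instead of 1.06. Parity fold changes within the high-amplified tumours, never past the threshold, changed sign with tumours of 1 mouse number summed for Papln and Chrm3 (0.043 and 0.045) and with a tumour left out for Papln (-0.41 to 0.53), Cdh19 (-1.72 to 0.41), Chrm3 (-0.60 to 0.25), Dpp10 (-12.70 to 0.16), Ednrb (-1.05 to 1.19) and Itpkb (-0.049 to 0.25). Scaling by library totals (CPM), a choice made after seeing the data, gave 66.6-fold for Papln and 2.24-fold for Ednrb between group means. No paired analysis was possible because the replicate numbers only name the tumours and pair none.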
